A study of Canis lupus familiaris with 12 samples.

Results

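HU-HSA-2 and HU-HSA-3 are cell lines of canine hemangiosarcoma, and their transcript responses to glucose loss were compared gene by gene. Both lines were grown for 48 h in DMEM with 10% fetal bovine serum that held either 25 mM glucose or no glucose (0 mM), with 3 mRNA libraries in each of the 4 groups, so the comparison used 12 of 12 libraries. The labels name no transgene or gene deletion in any group, and all groups shared the same serum and antibiotics. The comparison covered the 30951 dog genes listed in both count tables, joined by Ensembl identifier, of which 12233 had enough counts to be tested. A response is the log2 ratio of the level at 0 mM to the level at 25 mM glucose, and the difference between the lines is the response of HU-HSA-3 minus that of HU-HSA-2. Each line stands for itself, because 3 cultures of 1 line are not separate tumours.

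Hemangiosarcoma is a malignant tumour of dogs with endothelial features. When cells lack glucose, amino acids or properly folded protein, kinases that sense these shortages phosphorylate the translation factor eIF2α, most protein synthesis slows, and the transcription factor ATF4 is made in larger amounts from its own mRNA. ATF4 then raises genes of amino acid synthesis and import, of one-carbon metabolism and of stress signalling, a programme known as the integrated stress response. Cells that keep growing without glucose can feed the tricarboxylic acid cycle from glutamine, the carbon source of asparagine and proline.

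The tables name genes by identifier alone, and a symbol was available for 17 of them, all tested. Of these, 7 belong to the stress response, 2 to proline synthesis, 3 mark endothelium and 5 are reference genes of RT-qPCR. At 25 mM glucose PECAM1, the adhesion molecule CD31, lay between 2188 and 2207 CPM (CPM, the count scaled to a common normalized library total) in HU-HSA-2 and between 945 and 997 CPM in HU-HSA-3. VWF, the clotting factor of endothelial granules, was near the detection limit in both lines, with 3 to 47 counts per library. Fibroblast, leukocyte and epithelial markers could not be read without symbols.

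Library totals ran from 10406166 to 13405159 counts. One library stood apart: HU-HSA-3 0 mM replicate 1 deviated from its 2 group mates by a root mean square of 0.345 on the log2 scale, against 0.192 to 0.252 for the other 11 libraries. The typical variation between replicates was 8.15% with all 12 libraries and 6.12% without it. Since all libraries share one estimate of spread, this library bears on calls in both lines, and results are given with and without it. Cultures were grown in triplicate, and no label says that they came from separate experiments, so p-values measure the spread between these cultures.

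Most of the genes changed by glucose loss were past the threshold in a single line. In HU-HSA-2, 1097 genes (8.97% of those tested) passed an adjusted p of 0.05 by the quasi-likelihood test of edgeR, adjusted by Benjamini-Hochberg, 656 higher (5.36%) and 441 lower (3.61%) without glucose. In HU-HSA-3, 1153 genes passed (9.43%), 673 higher (5.50%) and 480 lower (3.92%). These near-equal counts are those of the joint fit, in which the lines share one estimate of spread. Fits of each line alone called 1583 genes in HU-HSA-2 and 626 in the other line, and the cause of this change was not tested. The lists had 277 genes in common, which is 25.3% of the first list and 24.0% of the second. Among these, 222 moved in the same direction (1.81% of genes tested), 155 of them higher and 67 lower without glucose, and 55 moved in opposite directions (0.450%). A gene past the threshold in one line and not in the other is not thereby shown to differ between lines, so the difference itself was tested.

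The balance of higher and lower calls differed between counts and the TPM scale. On the TPM scale (the deposited levels scaled for gene length and library total), tested with limma on log2(TPM + 1), HU-HSA-3 had 343 genes higher and 632 lower without glucose, the reverse of the order on counts, and HU-HSA-2 had 410 and 357. A pseudocount of 0.1 gave 340 and 636 in HU-HSA-3 and 362 and 295 in HU-HSA-2. On counts with each library's trend with gene length removed, the numbers were 721 and 640 in HU-HSA-3 and 733 and 714 in HU-HSA-2. Genes called in the same direction in both lines were then 175 higher and 101 lower, and on the TPM scale 74 and 72, or 68 and 67 with the pseudocount of 0.1, so their excess of rises was seen on counts and not on the TPM scale. The median response over all genes on log2(TPM + 1) was -0.03 log2 in HU-HSA-2 and -0.08 log2 in HU-HSA-3. On counts this median was -0.001 log2 in HU-HSA-2 and 0 log2 in HU-HSA-3, and with the length trend removed -0.02 and -0.01 log2. Counts were also normalized between libraries (TMM), so unit and normalization changed together. Which of them moved the balance was not tested.

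The response differed between the lines for 579 genes (4.73%), with 297 responses higher (2.43%) and 282 lower (2.31%) in HU-HSA-3, and 2219 genes had an unadjusted p under 0.05. With limma on log2(TPM + 0.1) 370 differences passed, 169 of them higher in HU-HSA-3 and the rest lower, and 320 were among the 579. The size of these differences had a median of 0.67 on the log2 scale, and 140 exceeded 1. Of the 1973 genes past the threshold in at least 1 line (16.1%), 524 (26.6%) also had a difference past the threshold. For 572 (29.0%), the 95% interval of the difference lay within 0.5 log2 of 0, which is taken here as alike. Over all genes tested, 5190 (42.4%) had such an interval, a larger share than among the responding genes. Since 0.5 log2 exceeds the response of many genes, a gene that responded in a single line can count as alike by this measure, and 430 of the 572 were past the threshold in a single line and 142 in both. These sets of 524 and 572 shared 6 genes, whose differences were small but well measured. The remaining 883 genes were neither shown to differ nor shown to be alike at this replication.

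A difference between the lines was shown for a minority of the genes called in a single line. Of the 820 genes past the threshold in HU-HSA-2 and not in HU-HSA-3, 182 had a difference past the threshold and 638 did not. The corresponding numbers for the 876 genes past the threshold in HU-HSA-3 and not in HU-HSA-2 were 253 and 623. A further 55 genes differed between the lines without passing the threshold in either line. Of the 55 genes that moved in opposite directions, 27 were lower in HU-HSA-2 and higher in HU-HSA-3, and 28 the reverse. Each of them had a difference past the threshold. Calls of opposite sign in the same fit make that nearly certain, so it adds no evidence.

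The mean of both responses passed the threshold for 1718 genes (14.0%), 1030 higher (8.42%) and 688 lower (5.62%) without glucose. This split also turned on the TPM scale, where limma called 599 higher and 1027 lower on log2(TPM + 1) and 565 and 962 on log2(TPM + 0.1), and it was even, 1063 and 1053, with the length trend removed. Of the 1718 genes, 1415 had no difference past the threshold, 303 had one, and 423 passed in neither line alone. A mean past the threshold does not by itself show a shared response. It also passed for SESN2, which passed in HU-HSA-3 alone, and for CHAC1, which moved in opposite directions. Among the 222 genes called in both lines in the same direction, 142 were alike within 0.5 log2 and 34 differed in size, 20 with the larger response in HU-HSA-3 and 14 in the other line. The median size of the response in these 222 genes was 0.42 log2 in HU-HSA-2 and 0.44 log2 in HU-HSA-3.

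**Figure D1:**
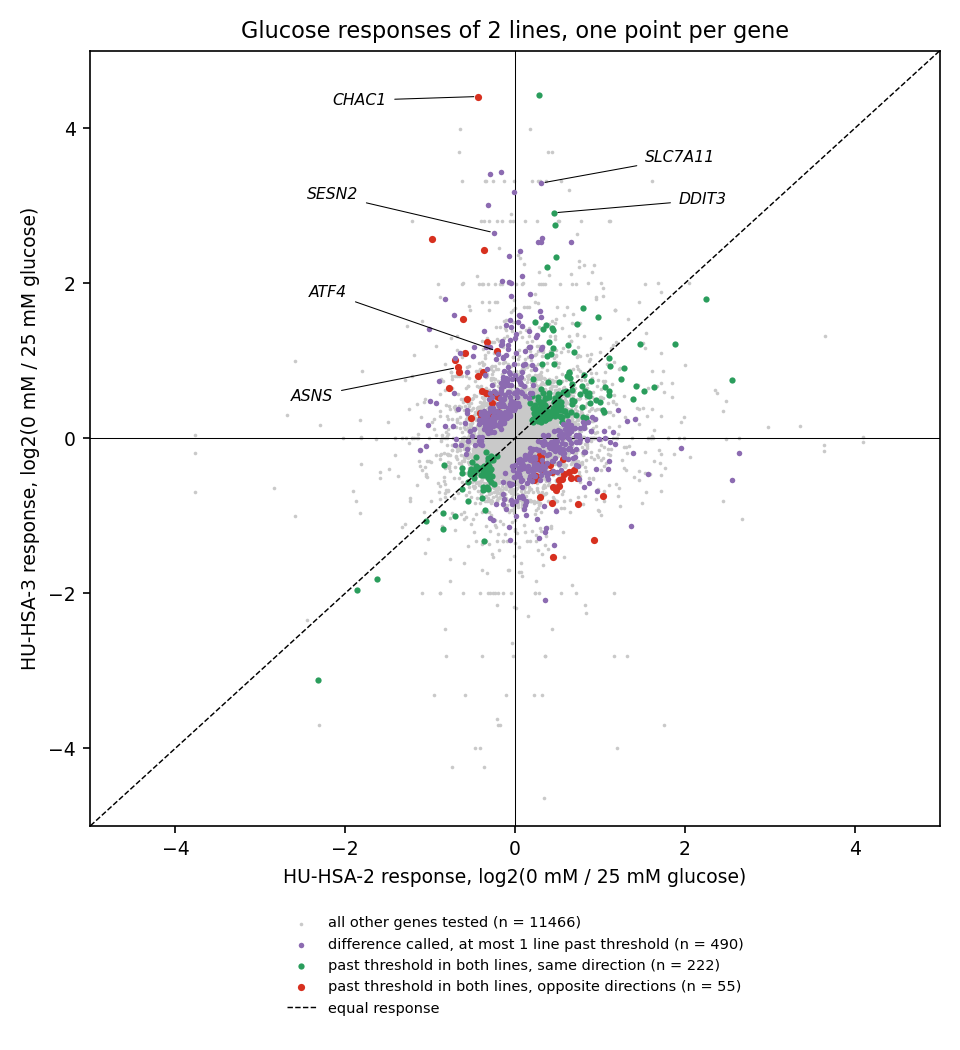
Response of each of 12233 genes to glucose loss in HU-HSA-2 (x axis) and HU-HSA-3 (y axis), both as log2(0 mM / 25 mM), with 1 gene beyond the axis limits; the dashed line marks equal responses. The 222 genes called in both lines in the same direction (green) lie in the lower left and upper right, and the 55 called in opposite directions (red), ATF4, ASNS and CHAC1 among them, lie in the upper left and lower right.

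Without HU-HSA-3 0 mM replicate 1, 2009 of 12444 genes tested passed in HU-HSA-2 and 1337 in the other line, and the response differed for 852 (6.85%). The genes called in both lines then numbered 467, of which 369 moved in the same direction (79.0%, against 80.1% with all libraries) and 98 in opposite directions. Of the 222 and 55 genes called with all libraries, 199 and 48 were again in the same class. The share of responding genes with a difference past the threshold was 27.4% of 2879, and the share alike within 0.5 log2 rose to 44.8%, or 1290 genes. The matching share over all genes tested was not computed for this fit, so the rise cannot be read as particular to responding genes. The number of calls also moved when other single libraries were left out, each of which leaves its group with fewer libraries. Leaving out HU-HSA-2 0 mM replicate 1 or 2, or any 25 mM library of HU-HSA-2, left 608 to 715 genes in that line, and leaving out any 25 mM library of HU-HSA-3 left 634 to 718 in HU-HSA-3. The count in the same direction fell to 143 without HU-HSA-2 25 mM replicate 3, and to 136 and 141 without HU-HSA-3 25 mM replicates 1 and 3. Genes alike within 0.5 log2 numbered 302 to 374 without HU-HSA-2 0 mM replicate 1 or any single 25 mM library of either line. Genes in opposite directions numbered 32 to 34 without HU-HSA-2 0 mM replicate 1 or any single 25 mM library of HU-HSA-2. The count of differences stayed between 386 and 852 when single libraries were left out.

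Across genes, the responses of the lines were weakly and positively correlated. Over the 12233 genes tested Pearson's r was 0.15 and Spearman's rho 0.20, and the 2 responses had the same sign in 57.5% of genes. Without a filter on low counts r was 0.0463 and rho 0.12, and with limma on log2(TPM + 0.1) r was 0.11 and rho 0.20. These values describe the genes of 2 lines, and genes are not independent replicates. The regression slope of the HU-HSA-3 response on the HU-HSA-2 response was 0.20, and the reverse slope was 0.11. Both lie below 1, the value for equal responses measured without error, and measurement error lowers such slopes. The first of these slopes was 0.0434 without the filter and 0.12 on log2(TPM + 0.1). Over the 10573 genes with at least 1 CPM in each of the 4 groups, r was 0.21, rho 0.23 and the slopes 0.25 and 0.17. The responses of these genes had an SD of 0.24 log2 in HU-HSA-2 and 0.29 log2 in HU-HSA-3, of which measurement error made up 31.6% and 25.4% of the variance. After correction for that error, r was 0.29 and the slope of HU-HSA-3 on HU-HSA-2 was 0.36. The error was taken from the joint fit, so the library that stood apart bears on this correction. The correction was not repeated without that library. Without HU-HSA-3 0 mM replicate 1, r over these genes was 0.22 and the slope 0.26, before correction. Over the 1994 genes with a mean response or a difference past the threshold, r was 0.34 and rho 0.41, values that the choice of genes by these responses affects.

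How far replicate error limits the correlation was read from responses made of single libraries, each 1 library at 0 mM against 1 at 25 mM. In 18 pairs of such responses within HU-HSA-2 that shared no library, r over the 10573 genes was 0.288 to 0.474, with a median of 0.416. In 18 pairs within HU-HSA-3, r was 0.287 to 0.558, with a median of 0.479, and in the 6 pairs without replicate 1 at 0 mM it was 0.488 to 0.558. In the 81 pairs between lines, r was 0.0195 to 0.211, with a median of 0.126, and in the 54 pairs without that replicate the median was 0.139. Every pair between lines lay below every pair within a line. The pairs reuse the same 12 libraries, so they are not independent values.

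**Figure D2:**
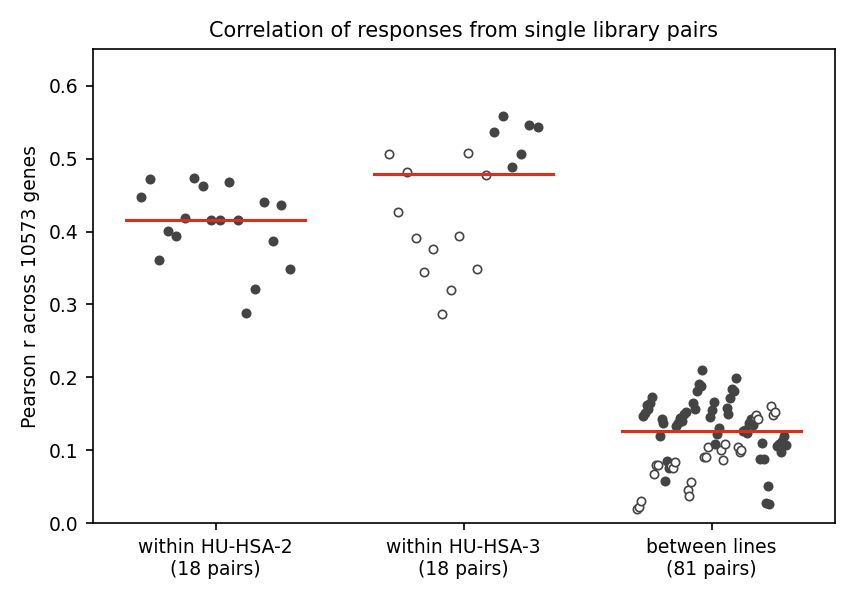
Pearson's r across 10573 genes between responses that each come from 1 library at 0 mM and 1 at 25 mM glucose, for pairs within HU-HSA-2, within HU-HSA-3 and between the lines; the red line is the median and open circles are pairs that use HU-HSA-3 0 mM replicate 1. The highest value between the lines, 0.211, lies below the lowest within a line, 0.287.

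Genes called in one line were then read in the other line. The other line's response was not used in the call, although its libraries entered the joint estimate of spread. The 656 genes that rose in HU-HSA-2 had a median response of 0.15 log2 in HU-HSA-3, and 71.2% were above 0 there, against 49.9% of all genes tested. Of these, 155 (23.6%) passed the threshold upward in HU-HSA-3, beside 5.50% of all genes tested. Another 28 (4.27%) passed downward, near the 3.92% of all genes tested. The 441 genes that fell in HU-HSA-2 had a median of -0.09 log2 in HU-HSA-3, and 69.2% were below 0, against 49.3% of all genes. In HU-HSA-3, 67 of them (15.2%) passed downward, beside 3.92% of all genes tested. A further 27 (6.12%) passed upward, near the 5.50% of all genes tested. Conversely, the 673 genes that rose in HU-HSA-3 had a median of 0.12 log2 in the other line with 68.9% above 0, against 49.7% of all genes. The 480 genes that fell in HU-HSA-3 had a median of -0.07 log2 in HU-HSA-2 with 66.7% below 0, against 50.2%. The medians in the line of choice, which choosing the genes inflates, were 0.48, -0.37, 0.47 and -0.41 log2 in the same order. With each line fitted alone, so that the other line's libraries took no part in the call, 832 genes that rose in HU-HSA-2 had a median of 0.14 log2 in HU-HSA-3 with 72.0% above 0, against 49.97% of the 10858 genes in both fits, and 651 that fell had a median of -0.09 log2 with 68.2% below 0, against 50.03%. The 394 genes that rose in HU-HSA-3 by this fit had a median of 0.15 log2 in the other line with 68.5% above 0, against 48.5% of genes, and the 220 that fell had -0.10 log2 with 65.9% below 0, against 51.5%.

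These shifts were present in each library of the other line. Genes that rose in HU-HSA-2 had medians of 0.13, 0.15 and 0.17 log2 in the HU-HSA-3 libraries at 0 mM, relative to the line's 25 mM mean, and of -0.01, 0.02 and 0.00 log2 in those at 25 mM. The library that stood apart gave the lowest of the 0 mM values. The genes that rose in HU-HSA-3 had medians of 0.11, 0.15 and 0.10 log2 in the HU-HSA-2 libraries at 0 mM. The genes that fell in HU-HSA-2 lay between -0.10 and -0.09 log2 in the HU-HSA-3 libraries at 0 mM, and those that fell in HU-HSA-3 between -0.08 and -0.07 log2 in the HU-HSA-2 libraries at 0 mM. In all 4 sets the 0 mM and 25 mM libraries did not overlap. With 3 libraries against 3, no exact permutation test can fall below p = 0.1, so none was made.

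**Figure D3:**
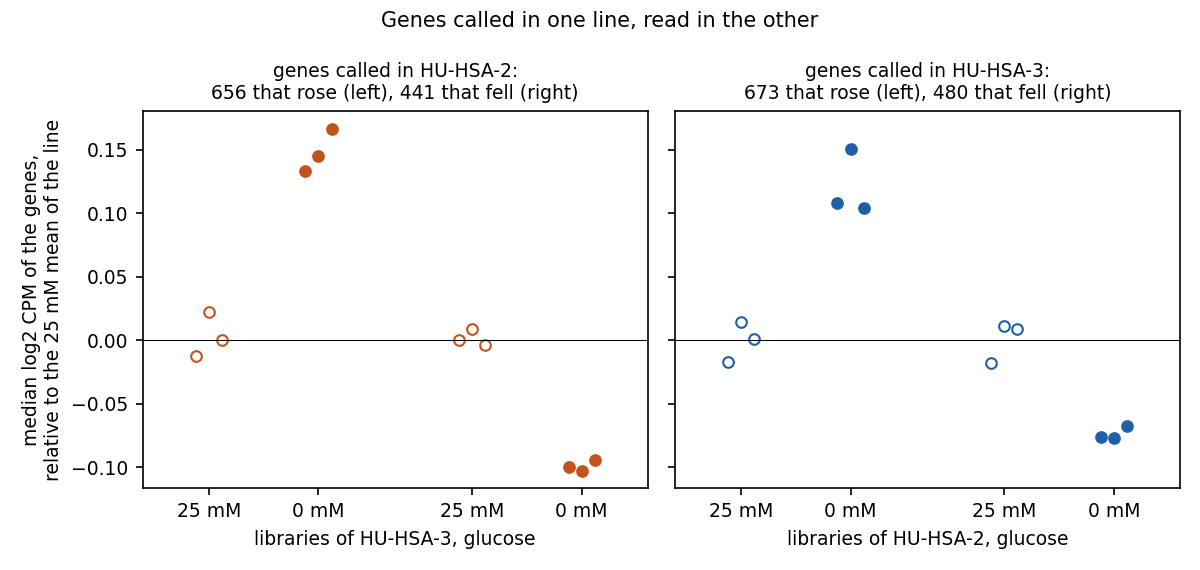
Median log2 CPM, relative to the 25 mM mean of the line, of genes called in one line and read in each library of the other; open circles are 25 mM and filled circles 0 mM libraries. The 656 genes that rose in HU-HSA-2 sit at 0.13 to 0.17 in the 0 mM libraries of HU-HSA-3 and near 0 in its 25 mM libraries.

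The stress-response genes differed between the lines. All 7 had a response higher in HU-HSA-3 with a difference past the threshold, beside 2.43% of the genes tested. In HU-HSA-3 all 7 rose, beside 5.50% of genes. In HU-HSA-2, 1 rose (5.36% of genes did), 3 fell (3.61% did) and 3 did not pass. All libraries were taken at 48 h, so a response that peaked earlier in either line would not be seen here. Their median response was 2.65 log2 in HU-HSA-3 and -0.22 log2 in HU-HSA-2, with a median difference of 2.45 log2, beside a median difference of 0.01 log2 over all genes. This list comes from genes that the study measured for their response in these cells, so its direction is not independent evidence. In HU-HSA-3 the 0 mM and 25 mM libraries did not overlap for any of the 7 (28.2% of all genes), and in HU-HSA-2 for 5 of the 7 (32.3%).

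ATF4 (ENSCAFG00000001324), the transcription factor at the head of the programme, was at 584, 609 and 604 CPM at 25 mM and 510, 531 and 506 CPM at 0 mM in HU-HSA-2. HU-HSA-3 cells had it at 645, 594 and 634 CPM at 25 mM and 1469, 1339 and 1279 CPM at 0 mM. The lines had like levels with glucose, and without it every HU-HSA-3 library was above and every HU-HSA-2 library below its own 25 mM range. The response was 1.13 ± 0.06 log2 (SE) in HU-HSA-3 and -0.22 ± 0.06 log2 in HU-HSA-2, and the difference was 1.34 ± 0.09 log2, with an adjusted p of 3.1e-08 in edgeR's quasi-likelihood test. The fall in HU-HSA-2 (adjusted p of 0.038 in the same test) did not pass when any 1 library of HU-HSA-2, or HU-HSA-3 25 mM replicate 1 or 3, was left out, with adjusted p of 0.053 to 0.14. The difference passed each time.

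ASNS (ENSCAFG00000002222), which makes asparagine from aspartate and glutamine, also moved in opposite directions. In HU-HSA-2 it was at 189, 186 and 185 CPM with glucose and at 116, 111 and 124 CPM without. In HU-HSA-3 it was at 147, 148 and 148 CPM with glucose and at 295, 276 and 262 CPM without. No groups overlapped, and the order of the lines was reversed by glucose loss. The responses were -0.68 ± 0.06 and 0.91 ± 0.06 log2 and the difference 1.59 ± 0.09 log2 (edgeR's adjusted p of 5.4e-09). Because these responses nearly cancel, the mean response of ASNS was 0.12 ± 0.04 log2 and did not pass (edgeR's adjusted p of 0.083).

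CHAC1 (ENSCAFG00000009414), an enzyme that degrades glutathione, had the fourth largest difference of all genes tested. In HU-HSA-2 its levels were 28.0, 31.6 and 29.2 CPM at 25 mM and 21.5, 24.9 and 19.3 CPM at 0 mM. In HU-HSA-3 they were 3.54, 3.55 and 2.71 CPM at 25 mM and 71.1, 67.5 and 70.6 CPM at 0 mM. The line with the lower level under glucose had the higher level without it. The responses were -0.44 ± 0.10 and 4.41 ± 0.13 log2, and the difference was 4.85 ± 0.17 log2 (edgeR's adjusted p of 7.9e-12). The fall in HU-HSA-2 (edgeR's adjusted p of 0.01) did not pass without HU-HSA-2 0 mM replicate 3 or HU-HSA-2 25 mM replicate 2, at 0.051 and 0.065, or with limma on log2(TPM + 0.1), at 0.056.

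DDIT3 (ENSCAFG00000030112), the stress-induced transcription factor CHOP, was the member of the list that rose in both lines. In HU-HSA-2 it went from 20.5, 22.0 and 21.1 CPM to 28.7, 30.0 and 28.6 CPM without glucose, and in HU-HSA-3 from 22.2, 19.6 and 22.4 CPM to 169, 169 and 145 CPM. Groups did not overlap within either line, and the levels with glucose were like. The rise was 1.37-fold in HU-HSA-2 and 7.51-fold in HU-HSA-3, and the difference was 2.45 ± 0.12 log2 (edgeR's adjusted p of 1.1e-09).

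SLC7A11, SESN2 and MTHFD2 rose in HU-HSA-3 and did not pass in HU-HSA-2, and the difference between lines passed for each. SLC7A11 (ENSCAFG00000003749), the cystine importer, was at 15.7, 13.9 and 16.4 CPM with glucose and 19.4, 20.1 and 17.3 CPM without in HU-HSA-2, and at 4.35, 4.24 and 4.65 CPM with glucose and 28.0, 55.5 and 46.0 CPM without in HU-HSA-3. Its lowest 0 mM value in HU-HSA-3 was from the library that stood apart, and the difference was 2.99 ± 0.29 log2 with that library and 3.21 log2 without it. SESN2 (ENSCAFG00000011842), a sestrin that restrains mTORC1 signalling, lay at 3.42 to 6.33 CPM in all 6 HU-HSA-2 libraries, with overlapping groups, and went from 4.90, 4.34 and 5.42 CPM to 24.4, 35.4 and 32.3 CPM in HU-HSA-3. Its difference was 2.90 ± 0.28 log2. MTHFD2 (ENSCAFG00000008716), an enzyme of mitochondrial one-carbon metabolism, lay at 100 to 113 CPM in HU-HSA-2 with overlapping groups, and went from 79.2, 74.6 and 77.8 CPM to 150, 145 and 144 CPM in HU-HSA-3. Its difference was 1.002 ± 0.09 log2. The adjusted p of these 3 differences in edgeR's quasi-likelihood test were 3.5e-06, 4.4e-06 and 2.1e-06.

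**Figure D4:**
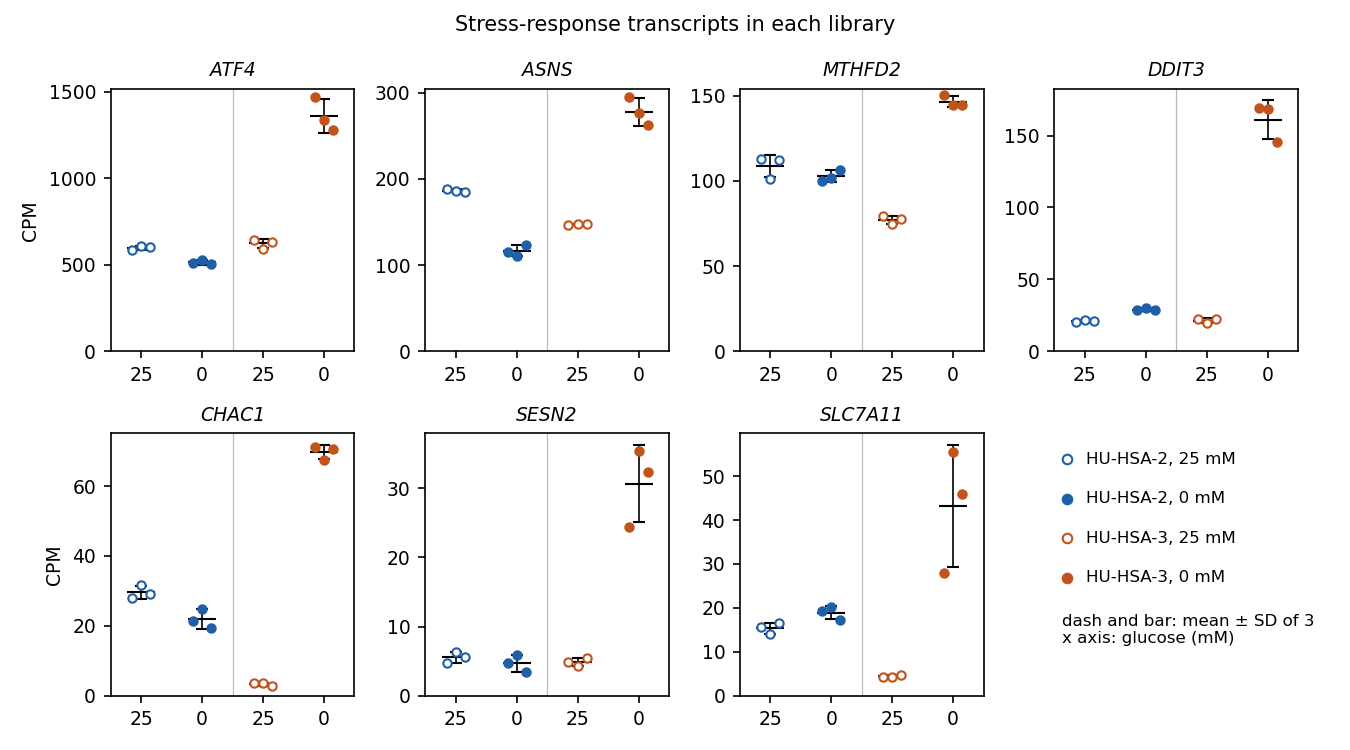
CPM of the 7 stress-response genes in each of the 12 libraries (blue HU-HSA-2, orange HU-HSA-3; open circles 25 mM, filled circles 0 mM glucose), with mean ± SD of 3 libraries. For each gene the 3 HU-HSA-3 libraries at 0 mM lie above the other 9 libraries, while HU-HSA-2 moves little or, for ATF4, ASNS and CHAC1, downward.

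The pair of proline-synthesis genes did not move together. PYCR1 (ENSCAFG00000005906), which makes the last step to proline, was at 195, 215 and 200 CPM with glucose and 161, 200 and 178 CPM without in HU-HSA-2, where the groups overlapped. In HU-HSA-3 it went from 83.1, 88.7 and 89.6 CPM to 126, 124 and 124 CPM. The difference was 0.69 ± 0.11 log2 (edgeR's adjusted p of 0.00063). Its response in HU-HSA-2 was -0.18 ± 0.07 log2, with an adjusted p of 0.15 in edgeR's test and of 0.038 without HU-HSA-2 0 mM replicate 2. ALDH18A1 (ENSCAFG00000008339), which makes the first steps from glutamate, was at 165, 167 and 166 CPM with glucose and 197, 197 and 199 CPM without in HU-HSA-2. HU-HSA-3 cells had it at 316, 333 and 319 CPM with glucose and 333, 335 and 333 CPM without. It rose in HU-HSA-2, by 0.25 ± 0.05 log2 (edgeR's adjusted p of 0.0059), and its response in HU-HSA-3 was 0.05 ± 0.05 log2. The difference, -0.20 log2 with a 95% interval of -0.36 to -0.04, did not pass (edgeR's adjusted p of 0.15) and lay within 0.5 log2 of 0.

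Of the 3 endothelial markers, PECAM1 and KDR had an interval of the difference within 0.5 log2 of 0, as did 42.4% of all genes tested. For PECAM1 the responses were -0.10 ± 0.06 log2 in HU-HSA-2 and -0.11 ± 0.06 log2 in HU-HSA-3, neither past the threshold, and the interval of the difference ran from -0.19 to 0.16 log2. KDR (ENSCAFG00000002079), the main VEGF receptor, was at 264, 271 and 283 CPM with glucose and 238, 239 and 225 CPM without in HU-HSA-2, and at 172, 190 and 195 CPM with glucose and 139, 167 and 175 CPM without in HU-HSA-3. The groups overlapped in HU-HSA-3 and not in HU-HSA-2. Neither response of KDR passed, -0.22 ± 0.08 and -0.21 ± 0.08 log2, while their mean, -0.22 ± 0.06 log2, did (edgeR's adjusted p of 0.016), and the interval of the difference was -0.23 to 0.24 log2. Without HU-HSA-3 0 mM replicate 1 the response of KDR in HU-HSA-2 passed (edgeR's adjusted p of 0.0051), as did that in HU-HSA-3 without its 0 mM replicate 3 (0.042). The response in HU-HSA-2 also passed in edgeR with the length trend removed (0.0077) and in a fit of that line alone (0.0090). For VWF the interval of the difference, -1.42 to 1.40 log2, was too wide to tell.

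None of the 5 reference genes had a difference past the threshold, beside 4.73% of all genes tested, and for 3 of them, TBP, YWHAZ and ACTB, its interval lay within 0.5 log2 of 0, beside 42.4% of all genes, so neither count sets the list apart. B2M (ENSCAFG00000013633), the light chain of class I histocompatibility molecules, was the 1 reference gene whose level changed with glucose. It was at 220, 216 and 219 CPM with glucose and 248, 278 and 254 CPM without in HU-HSA-2, and at 61.1, 48.1 and 54.7 CPM with glucose and 97.2, 65.6 and 70.2 CPM without in HU-HSA-3. The groups did not overlap in either line, and the highest value of HU-HSA-3 came from the library that stood apart. The mean response was 0.38 ± 0.08 log2 (edgeR's adjusted p of 0.0048). The response was 0.50 ± 0.12 log2 in HU-HSA-3 (edgeR's adjusted p of 0.013), and 0.31 log2 without that library. It did not pass without HU-HSA-3 25 mM replicate 2 or 3 (0.074 and 0.057), or in a fit of HU-HSA-3 alone (0.085). In HU-HSA-2 the response was 0.25 ± 0.11 log2 and did not pass (0.17), but did without the library that stood apart (0.00989), with a replicate block (0.048), with the length trend removed (0.038), without a filter on low counts (0.025) and in a fit of HU-HSA-2 alone (0.0062). RPL32 had 33 to 213 counts per library at this identifier, low for a ribosomal protein gene, and its interval of -0.72 to 0.57 log2 was uninformative.

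**Figure D5:**
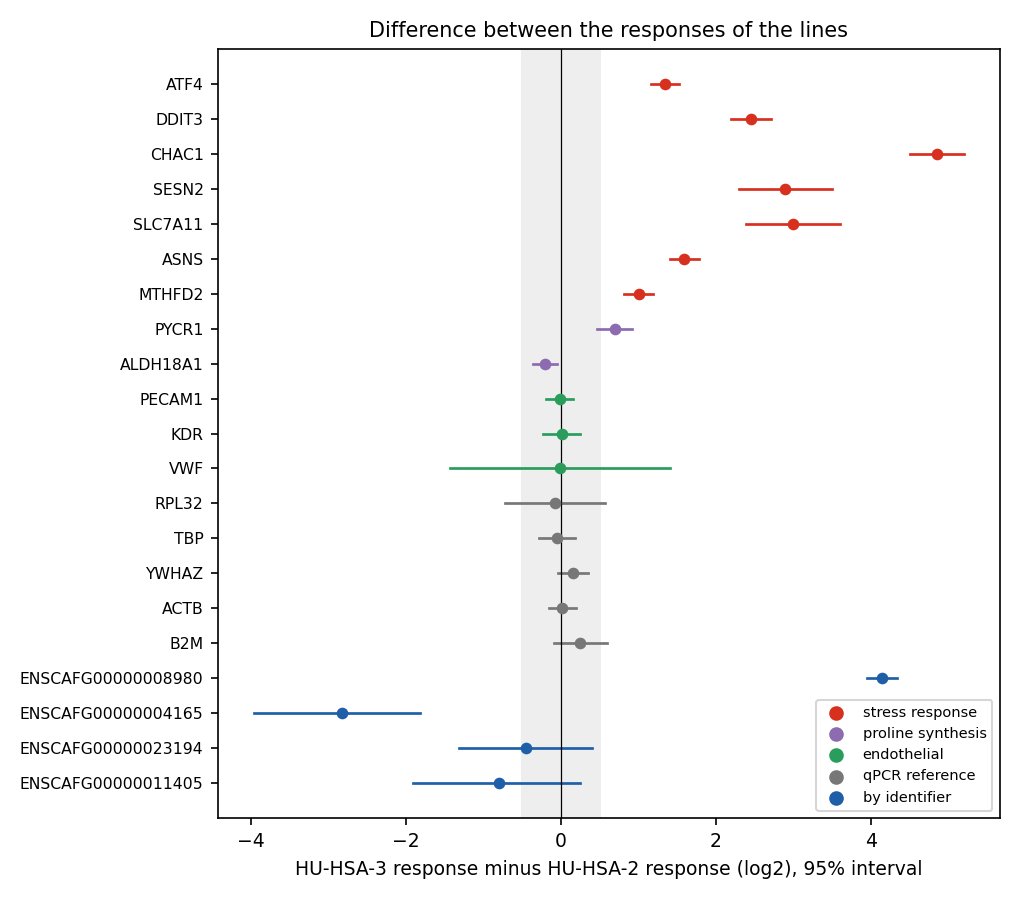
Difference between the lines (HU-HSA-3 response minus HU-HSA-2 response, log2) with its 95% interval for the 17 genes with a symbol and 4 named by identifier; the grey band marks 0.5 log2 either side of 0. All 7 stress-response genes lie above the band, at 1.002 to 4.85, and PECAM1, KDR, TBP, YWHAZ, ACTB and ALDH18A1 lie within it.

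Among genes without a symbol, 4 were taken by identifier, each with the largest value of its kind under the naming rule. ENSCAFG00000008980 was at 93.3, 97.6 and 101 CPM with glucose and 117, 116 and 121 CPM without in HU-HSA-2, and at 40.1, 45.3 and 40.5 CPM with glucose and 909, 917 and 874 CPM without in HU-HSA-3. It rose in both lines, 1.21-fold and 21.5-fold, and the difference was 4.15 ± 0.09 log2 (edgeR's adjusted p of 1.3e-14). The rise in HU-HSA-2 (edgeR's adjusted p of 0.0093) did not pass without HU-HSA-2 25 mM replicate 1 or with limma on log2(TPM + 0.1), at 0.054 in both.

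ENSCAFG00000004165 showed the opposite pattern at low counts. In HU-HSA-2 it had 3, 3 and 2 counts with glucose and 20, 21 and 16 counts without, and the summed counts gave a rise of 6.46-fold with an exact 95% counting interval of 3.07 to 15.7. In HU-HSA-3 it had 32, 47 and 30 counts with glucose and 29, 30 and 37 counts without, with overlapping groups. The difference was -2.82 ± 0.51 log2 (edgeR's adjusted p of 0.0021). On log2(TPM + 1), which understates the changes of low genes, the response in HU-HSA-2 was 0.85 log2 and the difference -1.03 log2 (limma's adjusted p of 0.019), against a response of 2.64 log2 on counts. Counting intervals cover counting error only.

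The last pair were shared responses. ENSCAFG00000023194 rose in both lines, from 0.676, 0.719 and 0.696 CPM to 3.86, 2.87 and 3.35 CPM in HU-HSA-2 and from 1.09, 1.48 and 2.23 CPM to 5.60, 5.17 and 5.92 CPM in HU-HSA-3. The interval of its difference was -1.31 to 0.40 log2. ENSCAFG00000011405 fell in both lines, from 39.5, 34.6 and 37.4 CPM to 7.64, 5.59 and 9.04 CPM in HU-HSA-2. It fell in HU-HSA-3 from 58, 53 and 39 counts to 1, 3 and 13 counts, 8.84-fold by the summed counts with an exact counting interval of 5.34 to 15.6. The interval of its difference was -1.90 to 0.25 log2, and its difference was -0.80 log2 with all libraries and -2.17 log2 without HU-HSA-3 0 mM replicate 3, which held the 13 counts. Neither difference passed, and that the groups of both genes did not overlap in either line was a condition of the naming rule.

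The level of the genes under glucose gives the context of these responses. At 25 mM glucose 9091 genes (74.3%) differed between the lines, 4422 higher (36.1%) and 4669 lower (38.2%) in HU-HSA-3, and 3578 of them by more than 1 log2. The median size of the difference between the lines was 0.60 log2, against a median size of 0.14 and 0.16 log2 for the glucose responses of the first and the second line. The lines were thus farther apart from each other than either moved on losing glucose. Baseline levels and responses use the same 25 mM libraries, so the 2 are given side by side and their relation was not tested.

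Differing responses were not mainly those of genes silent in one line. Of the 579 genes whose response differed, 563 (97.2%) had at least 1 CPM at 25 mM in both lines, beside 87.2% of all genes tested, and those below 1 CPM numbered 4 in HU-HSA-2 against 13 in HU-HSA-3. Genes with higher levels are also better measured, and the share of genes with a difference past the threshold rose from 1.06% in the lowest of 5 equal bins of mean level to 7.56% in the highest. From the lowest bin to the highest, the correlation of the responses was 0.11, 0.20, 0.19, 0.30 and 0.23.

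Among the stress-response genes, CHAC1, SLC7A11, MTHFD2 and ASNS were at lower levels in HU-HSA-3 at 25 mM than in the other line, with differences of -3.18, -1.79, -0.49 and -0.34 log2. For ATF4, DDIT3 and SESN2 the baseline differences of 0.06, 0.01 and -0.19 log2 did not pass. A differing response was thus seen in genes with and without a differing baseline. At 0 mM glucose every HU-HSA-3 library exceeded every HU-HSA-2 library for all 7.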

How the data were processed

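mRNA libraries of both lines (3 per group) were mapped by the authors to CanFam3.1 with STAR and quantified with RSEM. Expected counts per gene, not normalized, and TPM, scaled for length and library total, were deposited by the authors in separate tables for each line. Versions of STAR and RSEM and the annotation release are not given in the sources used here. RSEM divides reads shared between genes, and 1283 genes held values that were not whole, ACTB and YWHAZ among them.

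The tables were joined by identifier, and the expected counts, rounded to whole numbers, entered edgeR 4.0.16 under R 4.3.3 (filterByExpr, TMM). All 12 libraries were fitted with 4 group means, and contrasts were tested with edgeR's quasi-likelihood test and Benjamini-Hochberg adjustment over 12233 genes (threshold 0.05). Fitted log2 ratios used a prior count of 0.125. The SE was the size of the unshrunk log2 ratio over the square root of F, and 95% intervals used the t distribution with the fit's degrees of freedom (median 16.4). Interval margins of 0.5 log2 defined alike responses. Correction of the correlation subtracted the mean squared SE from each variance. The procedure was tested on simulated counts.

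The genes described and their lists were chosen with earlier results of these data known. Symbols of 17 genes came from the study's primer list, and 0 identifiers matched the reference gene table (UU_Cfam_GSD_1.0), so lists of other pathways and cell types were not used here. By rule, the text names these 17 genes and, by identifier, the gene with the largest difference in each direction and the largest shared rise and fall (smaller of both responses), among genes past the threshold whose mean reached 1 CPM and whose 0 and 25 mM libraries did not overlap in the line or lines past the threshold. The 12 replicate pairs differed by more than sampling noise (chi-square per degree of freedom 2.52 to 21.2). Some results are not reported here.

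Alternatives were DESeq2's size factors, upper-quartile normalization, a minimum of 1 count overall or of 10 per library, a block for the replicate number within each line, DESeq2 1.42.0, limma 3.58.1 on log2(TPM + 1) and log2(TPM + 0.1), removal of each library's trend with gene length (loess, span 0.3), separate fits of each line (also used, after seeing the data, to read genes called in one line in the other), and each library left out.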

Additional observations from a re-analysis of the deposited data

Results flagged for a closer look

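Results are listed here because the effect of glucose loss differed between the lines by the test of the difference. The response of 579 genes differed. Among the genes with a symbol, the difference of HU-HSA-3 minus HU-HSA-2 was 1.34 log2 for ATF4, 2.45 for DDIT3, 4.85 for CHAC1, 2.90 for SESN2, 2.99 for SLC7A11, 1.59 for ASNS, 1.002 for MTHFD2 and 0.69 for PYCR1. It was 4.15 log2 for ENSCAFG00000008980 and -2.82 log2 for ENSCAFG00000004165, or -1.03 log2 with limma on log2(TPM + 1). Each of these 10 gene differences kept its direction and its side of the threshold in every alternative in which the gene was tested.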

How the results depend on the processing

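Of 1175 values of named genes recomputed under alternatives, 1118 kept their direction and their side of the threshold, 16 no longer passed, 10 came to pass and 31 changed sign. Without a filter on low counts r fell to 0.0463 and the slope to 0.0434, and with a minimum of 10 counts per library they were 0.209 and 0.254. Chosen after seeing the data, the restriction to genes of at least 1 CPM in each group gave 0.205 and 0.249. Over genes past the threshold for the mean response or the difference, r was 0.341. With limma on log2(TPM + 1), 146 genes moved in the same direction in both lines and the slope was 0.148. With limma on log2(TPM + 0.1), 370 differences, 657 genes in HU-HSA-2 and 135 genes in the same direction passed, and the slope was 0.116. Removal of the length trend left 891 genes alike within 0.5 log2, and fits of each line alone called 1583 genes in HU-HSA-2 and 626 in the other line, where the joint fit called 1097 and 1153. The cause of these moves was not tested.

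With single libraries left out, calls in HU-HSA-2 ran from 608 to 2009, those in HU-HSA-3 from 634 to 1337, from 136 to 369 in the same direction, and from 302 to 1290 for alike responses. The ends at 2009, 1337, 369 and 1290 were without HU-HSA-3 0 mM replicate 1. Signs changed in values that did not pass the threshold. The difference between the lines ran from -0.0566 to 0.0344 log2 for PECAM1, -0.067 to 0.101 for KDR, -0.42 to 0.41 for VWF, -0.28 to 0.12 for RPL32, -0.113 to 0.0225 for TBP and -0.0193 to 0.0599 for ACTB, and the response of ENSCAFG00000004165 in HU-HSA-3 from -0.311 to 0.0668. With limma on log2(TPM + 1) and log2(TPM + 0.1), the response of ALDH18A1 in HU-HSA-3 was -0.0313 and -0.0315 log2, the difference of KDR -0.0445 and -0.0482, and that of ACTB -0.0425 and -0.0425. With the former, the differences of ENSCAFG00000023194 and ENSCAFG00000011405 were 0.0229 and 0.27. Removal of the length trend gave 0.0165 for PECAM1 and 0.10 for VWF, and a minimum of 10 counts per library gave -0.00690 for KDR.

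Deviations of same-numbered libraries correlated at -0.08 to 0.18, with 2 of 6 over 0.1, both in HU-HSA-3. No label says whether replicate numbers pair the libraries, and these few values do not settle it. With the replicate block, 502 differences passed, 463 of them among the 579, with 978 responses in HU-HSA-2, 1130 in the other line and 203 in the same direction, and B2M passed in HU-HSA-2 (edgeR's adjusted p of 0.048). At 3 libraries per group the difference of a typical gene was known to within 0.34 log2 either side by its 95% interval, which limits what could be called alike or different.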
